A study of Mus musculus with 9 samples.

Results

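The cytosolic ribosomal protein genes are the genes for the proteins of the large and small subunits of the ribosome outside mitochondria. They were taken from the gene tables by their symbols: Rpl or Rps followed by a number with or without a closing a, l or x, the stalk genes Rplp0, Rplp1 and Rplp2, and Rpsa. This gave 81 genes of the 23444 rows in each table. The rule used no measured value. GENCODE M21 lists 80 of the 81 as protein-coding and Rps4l as a transcribed processed pseudogene, and all 81 are called members below.

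Liver RNA of C57Bl6 mice was sequenced in 9 libraries of 3 groups. Aged PD-0332991 mice were 20 to 22 months old and received the drug in chow for 2 weeks; the labels write the amount as 450 with the unit mg/k. Aged untreated mice were 20 to 22 months old and young untreated mice were 2 months old, both without the drug. Each group had 3 libraries, the labels name no other allele or agent, and they do not say that the libraries came from separate mice, so each p-value measures only the spread between these libraries, which may be technical. PD-0332991, also known as palbociclib, inhibits the cell cycle kinases CDK4 and CDK6. The comparisons ask how ribosomal protein mRNAs differed with the drug at old age and with age itself.

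Levels are in TPM (a transcript's share of all transcripts, scaled to a fixed total), a relative abundance that is already divided by transcript length, so levels of different genes can be set side by side. The tables keep no sequencing depth, so the depth behind each value is unknown and no counting interval can be given. The listed values summed to 530575 to 576173 TPM per library. A value of 0 is read only as listed at 0, since the albumin gene Alb was also at 0 in all 9 libraries. The remaining hepatocyte markers summed to 70643 to 72311 TPM in PD-0332991 libraries, 68725 to 72867 TPM in aged untreated libraries and 66264 to 71648 TPM in young libraries.

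A ribosome joins a small subunit, which holds the mRNA and reads its codons, to a large subunit, which forms the peptide bond. Most of its proteins are encoded by a single working gene each, and their mRNAs open with a run of pyrimidines through which mTORC1 signalling sets their translation. Mammalian genomes also hold many processed copies of these mRNAs, most of them pseudogenes. In the liver, ribosome production accompanies the growth of hepatocytes and their large output of secreted proteins.

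The members Rps27, Rpl26, Rpl30 and Rpl34 had a near-identical copy elsewhere in the tables, and their printed levels cannot be read without it. A stretch of each coding sequence, read from the GENCODE M21 transcripts of GRCm38, is shown beside the same stretch of the copy because the bases that differ, in capitals, are all that a read could use within the stretch to tell the rows apart. Positions count from the first base of the start codon.

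Rps27 (chromosome 3), bases 1 to 60: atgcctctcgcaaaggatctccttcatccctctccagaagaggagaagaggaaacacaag
Rps27rt (chromosome 9), bases 1 to 60: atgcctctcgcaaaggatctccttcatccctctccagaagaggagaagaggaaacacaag
Rpl26 (chromosome 11), bases 151 to 210: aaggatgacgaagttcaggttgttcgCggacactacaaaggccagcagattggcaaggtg
Gm15772 (chromosome 5), bases 151 to 210: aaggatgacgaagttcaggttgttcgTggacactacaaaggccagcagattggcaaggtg
Rpl30 (chromosome 15), bases 61 to 120: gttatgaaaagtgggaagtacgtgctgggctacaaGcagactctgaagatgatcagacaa
Gm12191 (chromosome 11), bases 61 to 120: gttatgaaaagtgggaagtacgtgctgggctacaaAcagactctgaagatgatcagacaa
Rpl34 (chromosome 3), bases 91 to 150: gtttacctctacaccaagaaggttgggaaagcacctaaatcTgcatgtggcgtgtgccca
Rpl34-ps1 (chromosome 6), bases 91 to 150: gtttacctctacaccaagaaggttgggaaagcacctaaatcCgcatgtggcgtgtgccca

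Over the whole coding sequence, Rps27 and Rps27rt differed at 0 of 252 bases. Rpl26 and Gm15772 differed at 2 of 435 bases, Rpl30 and Gm12191 at 1 of 345, and Rpl34 and Rpl34-ps1 at 2 of 351. In each of these pairs the copy carried nearly all of the TPM. Rps27, a zinc-binding protein of the small subunit, had 2.22, 1.34 and 3.21 TPM in PD-0332991 libraries 1 to 3, against 3.18, 1.65 and 2.92 TPM in aged untreated libraries and 4.8, 2.28 and 2.68 TPM in young libraries. Its copy Rps27rt averaged 983 ± 152 TPM in PD-0332991 libraries, 919 ± 64.5 TPM in aged untreated libraries and 955 ± 153 TPM in young libraries (SD, n = 3 each). The member thus held 0.148% to 0.544% of the pair's sum, and the groups overlapped in both rows.

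The other 3 pairs were less lopsided but alike in order. Rpl26, which contacts the rim of the peptide exit tunnel, averaged 44.7 TPM over the 9 libraries and Gm15772 averaged 691 TPM. Rpl30, a protein near the interface of the subunits, averaged 27.5 TPM, and Gm12191 averaged 355 TPM. Rpl34, a protein of the large subunit, averaged 13.0 TPM, and Rpl34-ps1 averaged 476 TPM. The member held 3.19% to 9.52% of the sum for Rpl26, 3.62% to 10.7% for Rpl30 and 1.87% to 3.91% for Rpl34. Sequence sharing did not always go with a low member: Rps23, which lines the decoding centre, averaged 411 TPM, while Gm5148, a row that holds 92.2% of the 31-base words of its coding sequence, averaged 1.15 TPM. Rps15a averaged 22.0 TPM although its listed copies Rps15a-ps6 and Rps15a-ps4 averaged 1.11 and 0.480 TPM. How reads were divided between the rows of a pair is not given in the sources used here, so the single rows of these pairs are uncertain. The sums of both rows averaged 955 TPM for Rps27, 736 TPM for Rpl26, 382 TPM for Rpl30 and 489 TPM for Rpl34 over the 9 libraries.

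**Figure D1:**
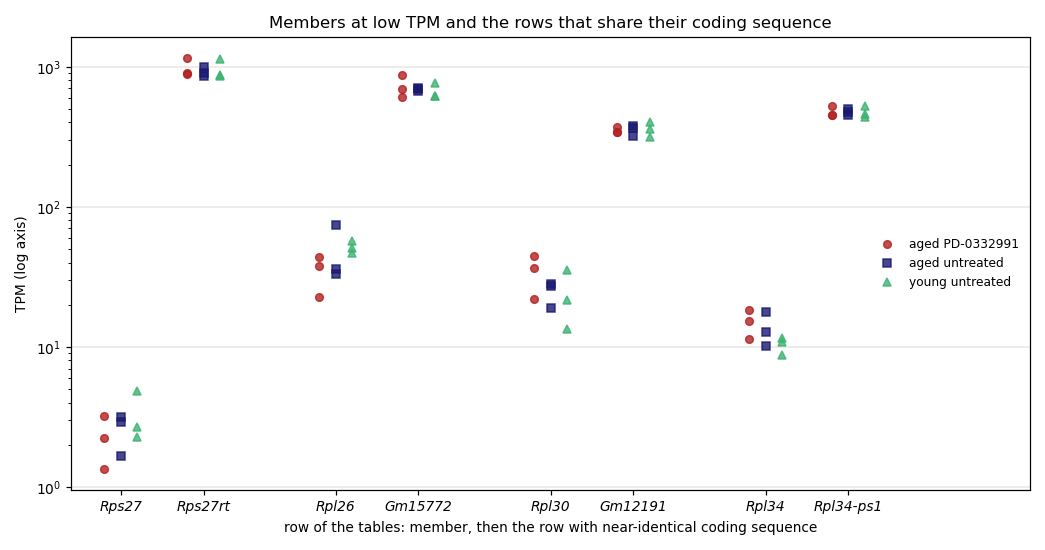
TPM on a log axis for the 4 members with a near-identical row, each beside that row. Points are single libraries (circles aged PD-0332991, squares aged untreated, triangles young untreated). The member lies far below its copy in every library and pair, and the 3 groups overlap in the copies.

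Shared sequence was common in the whole set. A median of 96.9% of the 31-base words of a member's coding sequence also occurred in transcripts of other genes of GENCODE M21, and 32 members had no word of their own. Most of those other genes are rows that the tables do not list, and 46 members shared no word with another listed gene. Rplp2 shared 80.3% of its words with a listed gene, Wdr89, which averaged 0.969 TPM.

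The members are short genes. The median coding length was 454.5 bases for the 80 members with a coding model, against 1212 bases for all 19490 listed genes with one. Coding sequences ran from 25 codons in Rpl41, whose product is among the smallest proteins known, to 419 codons in Rpl4. They lay on 19 chromosomes, 14 of them on chromosome 7. A total of 29 members carried small nucleolar RNA genes on the same strand within the gene body, 56 such genes in all, with 5 inside Rpl4.

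Promoters could be read for 60 members, in 72 windows of 300 bases (250 before and 50 from the start site onward) from RefSeq on GRCm38.p6. The promoters shown are those of 3 members, with searched words in capitals: the paralogues Rps27 and Rps27l, the first of them with an uncertain level, and the stalk gene Rplp2, which had the smallest adjusted p with age. Each runs from 100 bases before the start site to 20 bases from it, 5′ to 3′ on the gene's strand.

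Rps27, minus strand, chr3:90213629-90213748: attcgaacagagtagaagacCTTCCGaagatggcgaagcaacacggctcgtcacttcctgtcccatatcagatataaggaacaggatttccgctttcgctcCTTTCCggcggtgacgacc
Rps27l, plus strand, chr9:66945986-66946105: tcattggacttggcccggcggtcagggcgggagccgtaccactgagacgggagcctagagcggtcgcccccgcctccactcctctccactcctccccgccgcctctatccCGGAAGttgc
Rplp2, plus strand, chr7:141447551-141447670: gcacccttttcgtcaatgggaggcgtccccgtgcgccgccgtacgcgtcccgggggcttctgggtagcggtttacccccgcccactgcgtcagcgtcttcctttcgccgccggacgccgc

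A total of 4 words were searched on both strands. CGGAAG, the core bound by ETS factors, stood in 61.1% of the members' windows and in 16.9% of all 32851 windows of the table. The word CTTTCC, a pyrimidine run, stood in 36 of the 72 member windows and 26.6% of all windows. The E-box CACGTG stood in 11.1% of member windows and 7.15% of all. The TATA word TATAAA stood in 8.33% of member windows and 13.6% of all. Rplp2 shows none of these words in the printed stretch.

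Ribosomal protein mRNAs took between 6.01% and 6.81% of the listed TPM in every library. The members summed to 35611, 34298 and 38681 TPM in PD-0332991 libraries, to 35143, 35371 and 38577 TPM in aged untreated libraries, and to 33493, 36990 and 32708 TPM in young libraries. All groups overlapped. Their share of the listed TPM was 6.49% ± 0.286 in PD-0332991 libraries, 6.50% ± 0.220 in aged untreated libraries and 6.25% ± 0.211 in young libraries (SD, n = 3 each). The summed large-subunit TPM was 1.34 ± 0.00801 times the summed small-subunit TPM in PD-0332991 libraries, 1.36 ± 0.0189 times in aged untreated libraries and 1.34 ± 0.0142 times in young libraries (SD, n = 3 each). In bulk tissue, a different share of cells of a type and a different amount of RNA per cell cannot be told apart.

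Single members spanned a wide range of levels. Rpl41 was highest, with 1408, 1291 and 1421 TPM in PD-0332991 libraries, 1428, 1211 and 1593 TPM in aged untreated libraries and 1225, 1354 and 1157 TPM in young libraries. It was followed by the stalk gene Rplp1 at a mean of 1300 TPM over the 9 libraries, Rps29 at 1243 TPM and the X-linked Rpl10 at 1020 TPM. The first 3 overlapped in their libraries and did not differ beyond their spread. A further 67 members averaged between 100 and 1000 TPM, the lowest of them Rpl15 at 160 TPM, and 70 members were among the 500 rows of highest mean. Below a gap came Rpl22 at 60.1 TPM, then Rpl26, Rpl30, Rps4l at 22.7 TPM, Rps15a, Rpl34 and Rps27. With the near-identical row added, Rpl26, Rpl30, Rpl34 and Rps27 lay above the gap, and only Rpl22, Rps4l and Rps15a lay between 1 and 100 TPM. At the foot, the large-subunit paralogues known from other tissues were listed at or near 0: Rpl10l, a testis gene, was listed at 0 in all 9 libraries, Rpl39l, also of testis, reached 0.170 TPM in 1 young library and was at 0 in the others, and Rpl3l, of striated muscle, had at most 0.204 TPM and was at 0 in 6 libraries.

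**Figure D2:**
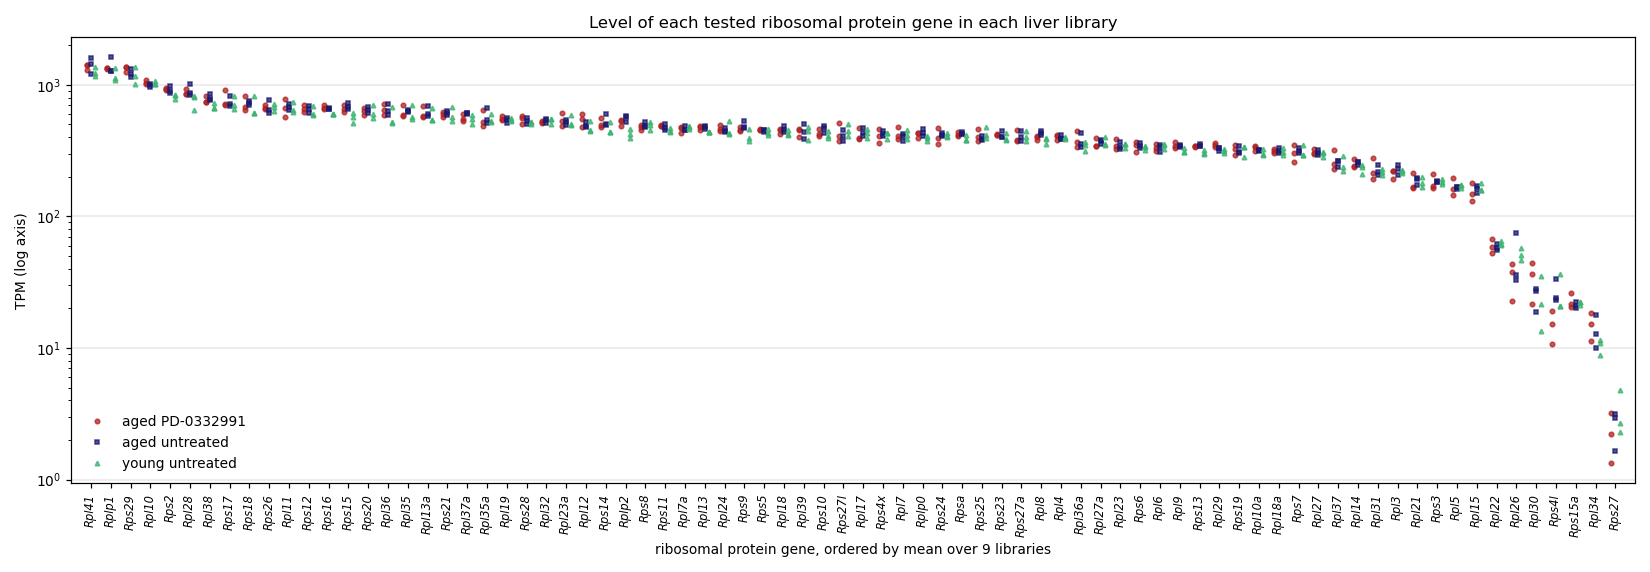
TPM of each of the 78 tested members in each library, on a log axis, with genes ordered by their mean. Most members lie between 100 and 1000 TPM with the 3 groups intermingled, and 7 lie below 100 TPM as single rows.

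A member was tested where it reached 1 TPM in at least 3 libraries. This held for 78 members, 46 of the large and 32 of the small subunit, among 10161 genes tested. Rpl10l, Rpl39l and Rpl3l were not. Among the 71 members above 100 TPM, the highest library exceeded the lowest by a median of 1.26 times, from 1.09 times in Rpl32 to 1.58 times in Rpl28. The 7 below 100 TPM varied by 1.29 to 3.59 times. Within a group, the coefficient of variation of a member had a median of 7.71% in PD-0332991 libraries, where all genes tested had 11.2%. It was 5.47% in aged untreated libraries, where all genes had 14.3%, and 7.72% in young libraries, where all genes had 11.3%. The median level was 429 TPM for tested members and 6.59 TPM for all genes tested. No set of genes matched for level was compared, here or for the intervals below.

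The members moved together from library to library within each group. Replicate 3 of the PD-0332991 group was the highest of its group for 63 of the 78 members, replicate 3 of the aged untreated group for 64, and replicate 2 of the young group for 60. The median member stood above its 9-library mean by 0.12 in the first of these libraries, 0.09 in the aged untreated one and 0.05 in the young one, on the log2 scale. Genes outside the set with an mRNA under 1000 bases (654 genes) had medians of 0.04 in the PD-0332991 library, 0.18 in the aged untreated library and 0.11 in the young library, while longer genes had −0.05, 0.04 and 0.01 in these libraries. The part of transcript length in this pattern was not tested.

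**Figure D3:**
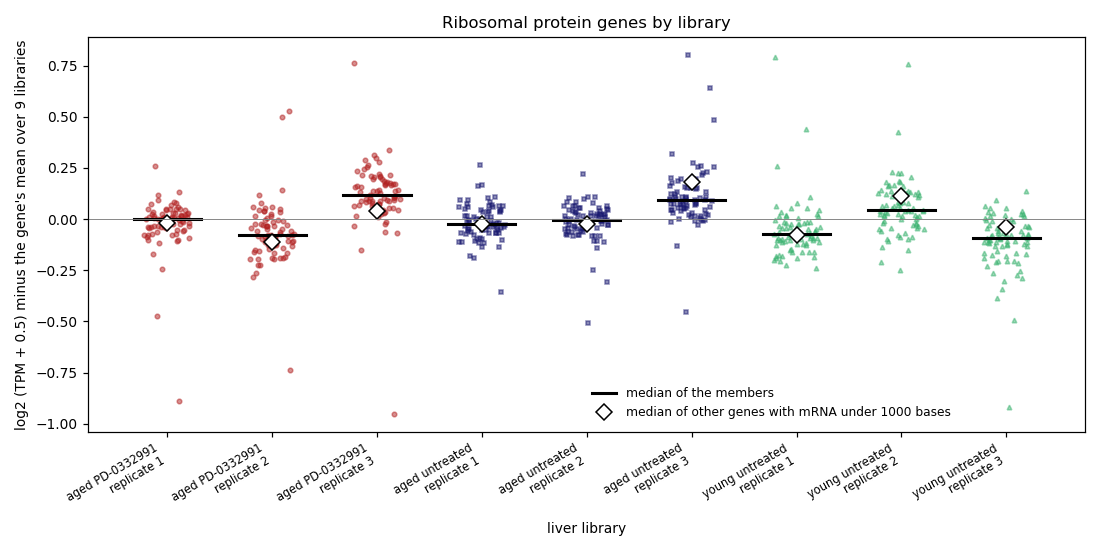
Each tested member in each library as log2 (TPM + 0.5) minus its mean over 9 libraries. Small symbols are members, black bars their median, and open diamonds the median of 654 other genes with an mRNA under 1000 bases. The bar is highest in replicate 3 of both aged groups and in replicate 2 of the young group.

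With PD-0332991 at old age, no ribosomal protein mRNA passed the test and most estimates were close to 0. Differences were tested with limma on log2 (TPM + 0.5), a scale that understates the change of low genes, and a gene was called at a Benjamini-Hochberg adjusted p under 0.05 over all genes tested. None of the 78 members was called, against 1.45% of all genes tested. At an unadjusted p under 0.05 limma gave 1 member, against 18.2% of all genes. The median log2 fold change was −0.01 for members and −0.09 for all genes, with 35 members and 33.3% of all genes above 0. With median-of-ratios scaling 73 members were above 0, where 48.6% of all genes were below 0 and their median was 0.01. For 73 members the 95% interval lay within −0.5 and 0.5, as it did for 47.9% of all genes. The 5 members with wider intervals were Rpl26, Rpl30, Rpl34, Rps27 and Rps4l, all below 100 TPM.

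The member with the smallest p was the pseudogene Rps4l. It had 15.2, 19.1 and 10.8 TPM in PD-0332991 libraries, against 24.1, 23.1 and 33.6 TPM in aged untreated libraries, while young libraries had 20.7, 36.5 and 20.8 TPM. Every PD-0332991 library lay below every library of the other groups. The log2 fold change was −0.83 ± 0.26 (SE) against aged untreated livers, with an adjusted p of 0.149 in limma. Rps4x, the X-linked gene of the same family and the small-subunit protein itself, had 407, 363 and 465 TPM in PD-0332991 libraries against 405, 448 and 424 TPM in aged untreated libraries, and these overlapped, with a log2 fold change of −0.05 ± 0.10.

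In 4 members the groups did not overlap, against 22.4% of all genes tested. With median-of-ratios scaling it was 26 members, 25 of them higher with the drug, or 33.3% of the members against 20.3% of all genes. The 4 as reported were Rps4l, Rpl10, Rpl29 and Rpl8. Rpl10 had 1024, 1012 and 1084 TPM in PD-0332991 libraries against 996, 966 and 1008 TPM in aged untreated libraries. It helps to complete the large subunit, and its log2 fold change was 0.07 ± 0.08. Rpl29 had 351, 335 and 362 TPM in PD-0332991 libraries against 332, 313 and 329 TPM in aged untreated libraries. Rpl8, a protein near the peptidyl transferase centre, was lower, with 404, 378 and 408 TPM in PD-0332991 libraries against 431, 419 and 445 TPM in aged untreated libraries, and a log2 fold change of −0.12 ± 0.09. The largest positive estimate, 0.43 ± 0.37 in Rpl30, became 0.03 ± 0.10 when Gm12191 was added to it. The largest negative one after Rps4l, −0.40 ± 0.33 in Rpl26, became 0.02 ± 0.13 with Gm15772 added. Rpl12, at the base of the stalk, had 0.12 ± 0.11 and Rps29 had 0.11 ± 0.11, while Rpl37a had −0.12 ± 0.09, Rps9 −0.11 ± 0.10 and Rpl3 −0.10 ± 0.10.

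With age, no member was called either, against 1.1% of all genes tested, but the estimates leaned to the aged side. Of the 78 members, 61 had a log2 fold change above 0 in aged against young untreated livers, compared with 47.9% of all genes. With quantile normalization 34 members were above 0, where 52.6% of all genes were below 0. The median was 0.05 for members and −0.01 for all genes, and −0.01 for members with quantile normalization. Without aged untreated replicate 3, 47 members were above 0, where 53.6% of all genes were below 0. Without young replicate 3, 45 members were above 0, where 51.1% of all genes were below 0. For 71 members the 95% interval lay within −0.5 and 0.5, against 51.3% of all genes. A list of other short abundant mRNAs, the 52 nuclear-encoded respiratory chain subunits, leaned the same way. Their median with age was 0.06, and 33 were above 0. In limma 1 of them had an unadjusted p under 0.05 with age, against 15% of all genes. With the drug their median was −0.09, and 14 were above 0.

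The acidic stalk protein gene Rplp2, part of the arm that recruits elongation factors, had the smallest p. It had 521, 577 and 568 TPM in aged untreated libraries, against 425, 464 and 392 TPM in young libraries, and 483, 538 and 532 TPM in PD-0332991 libraries. Aged and young libraries did not overlap. The log2 fold change was 0.38 ± 0.10 (SE), with a 95% interval of 0.17 to 0.59 and an adjusted p of 0.0864 in limma. The adjusted p ran from 0.0467 with library weights to 0.267 without young replicate 3. The other stalk genes gave 0.22 ± 0.12 for Rplp1 and 0.16 ± 0.09 for Rplp0.

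At an unadjusted p under 0.05, 7 members stood higher with age and 0 lower, against 15% of all genes, 7.56% higher and 7.43% lower. Besides Rplp2 these were Rps15, Rps9, Rpl28 and Rpl8, and also Rpl38 and Rps13, which are named after their values were seen. Rps15, beside the decoding centre, had 678, 658 and 728 TPM in aged untreated libraries against 568, 610 and 515 TPM in young libraries, and a log2 fold change of 0.29 ± 0.10. Rps9, near the entry of the mRNA channel, had 471, 479 and 528 TPM in aged untreated libraries against 397, 459 and 374 TPM in young libraries, and 0.27 ± 0.10. Neither pair of groups overlapped, and the adjusted p values in limma were 0.188 and 0.236. The number at an unadjusted p under 0.05 was 1 without young replicate 3, where it was 11.8% of all genes, and 11 without young replicate 2, where it was 14% of all genes.

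Aged and young libraries did not overlap in 14 members, all of them higher in aged livers. This is 17.9% of the members, against 18.4% of all genes without overlap and 8.82% without overlap and higher and 9.57% without overlap and lower. They were Rpl8, Rpl9, Rpl13, Rpl28, Rpl37a, Rpl38, Rplp0, Rplp2, Rps2, Rps9, Rps13, Rps15, Rps16 and Rpsa. Rpsa, also known as a laminin receptor, had 422, 421 and 435 TPM in aged untreated libraries against 379, 416 and 378 TPM in young libraries, a log2 fold change of 0.13 ± 0.08. The lowest estimates with age were −0.26 ± 0.32 in Rps27, −0.21 ± 0.33 in Rpl26, −0.14 ± 0.13 in Rps27l, −0.12 ± 0.11 in Rps25 and −0.09 ± 0.11 in Rpl22. With the copy added, Rps27 gave −0.05 ± 0.13 and Rpl26 gave 0.05 ± 0.13.

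**Figure D4:**
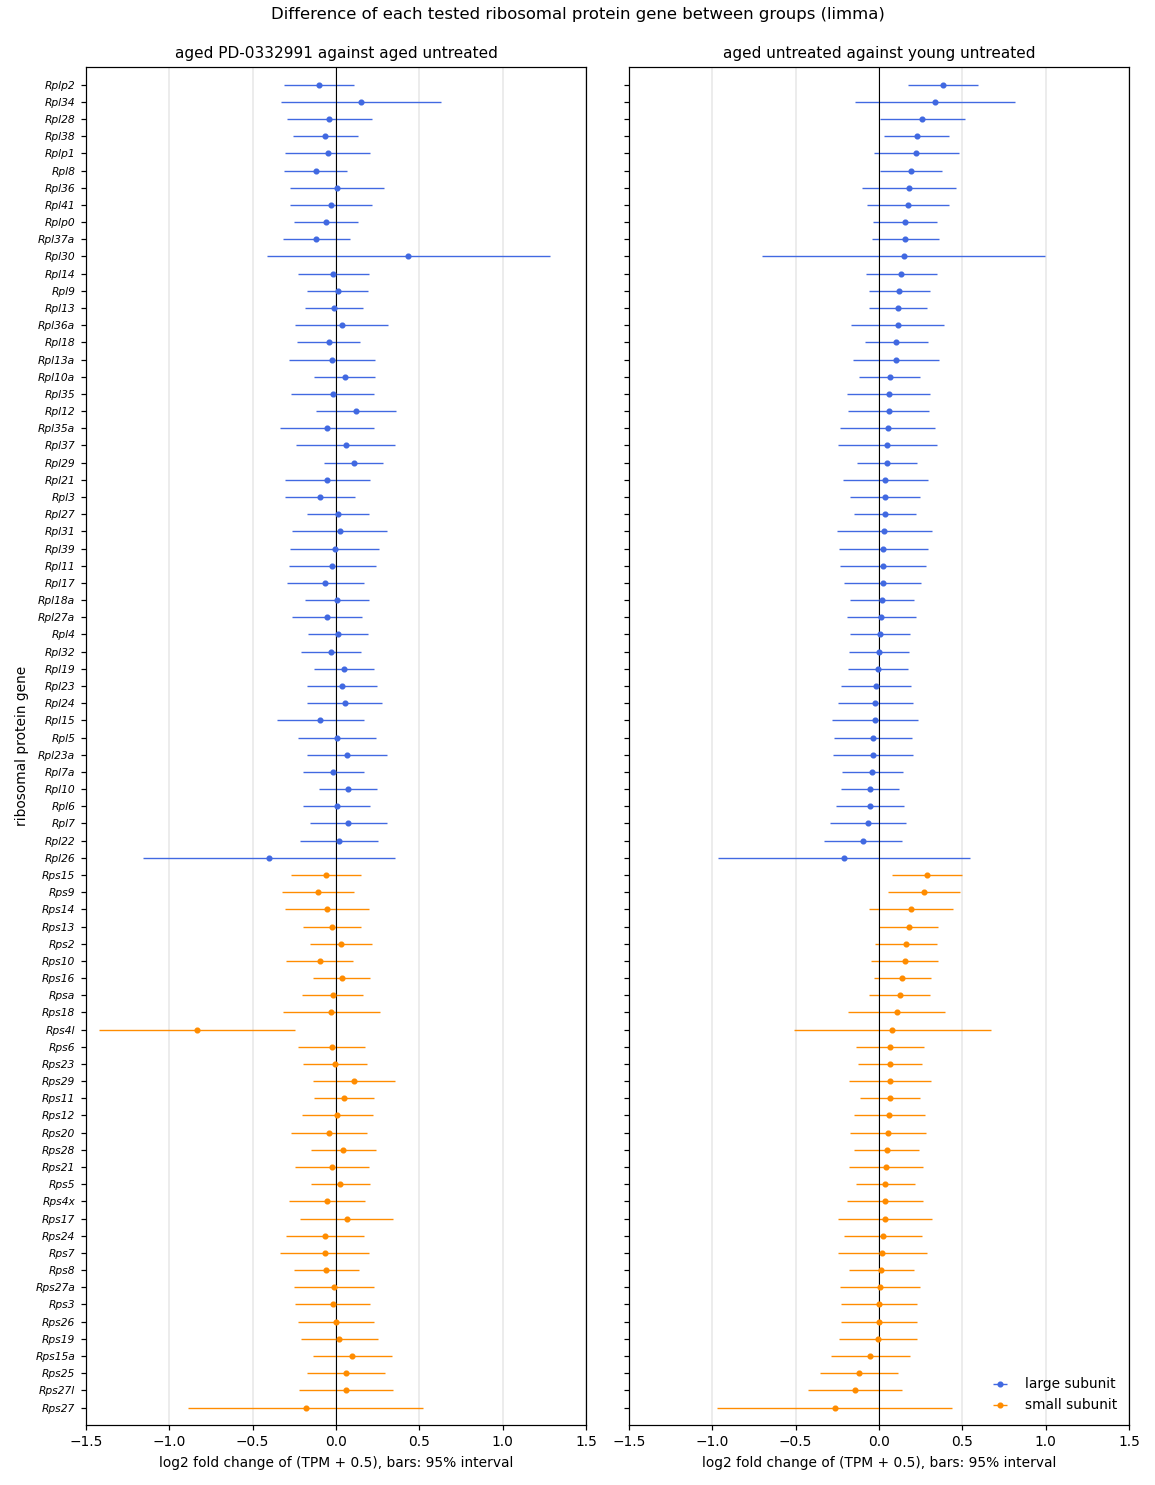
Log2 fold change of each tested member with its 95% interval, for aged PD-0332991 against aged untreated livers (left) and aged against young untreated livers (right), large subunit in blue and small subunit in orange. Most intervals are short and cross 0, and the wide ones belong to Rpl26, Rpl30, Rpl34, Rps27 and Rps4l.

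Treated aged livers against young livers also gave 0 called members in limma, against 6.88% of all genes, and 6 at an unadjusted p under 0.05, against 24.8%. This comparison shares its libraries with the other 2, so its values only complete theirs. The 6 were Rplp2 at 0.28 ± 0.10, Rps15 at 0.23 ± 0.10, Rpl34 at 0.49 ± 0.22 in its single row, Rps4l at −0.75 ± 0.26, and Rps16 and Rps2, which are named after their values were seen. With Rpl34-ps1 added, Rpl34 gave 0.02 ± 0.10 and 5 members had an unadjusted p under 0.05. With median-of-ratios scaling 27 members had an unadjusted p under 0.05 in limma, against 23% of all genes. The groups did not overlap in 12 members, against 33.9% of all genes, and in 31 with median-of-ratios scaling, against 31.5% of all genes. With that scaling all 31 were higher in PD-0332991 livers and 0 lower. Of the 12 as reported, PD-0332991 livers were higher in 10 (9.55% of all genes) and lower in 2 (24.4%). Rps4l and the single row of Rpl26 were the lower ones. With Gm15772 added, Rpl26 had 711, 642 and 913 TPM in PD-0332991 libraries against 667, 819 and 662 TPM in young libraries, which overlapped, and a log2 fold change of 0.07 ± 0.13. For 73 members the 95% interval lay within −0.5 and 0.5, against 43.4% of all genes. The median was 0.04 for members and −0.10 for all genes, and 56 members were above 0 (35.1% of all genes). With quantile normalization 32 members were above 0, and the median was −0.02 for members and −0.02 for all genes. With median-of-ratios scaling the count called was 2, against 6.03% of all genes: Rplp2 with an adjusted p of 0.0370 and Rps16 with 0.0473.

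Paralogues are given here for Rps27, Rpl22, Rpl39 and Rpl3. Rps27l had 407, 376 and 509 TPM in PD-0332991 libraries, 376, 405 and 452 TPM in aged untreated libraries and 408, 504 and 449 TPM in young libraries, and all groups overlapped. Its coding sequence differs from that of Rps27 at 60 of 252 bases, so reads over those bases tell the rows apart. It averaged 432 TPM over the 9 libraries, above the single row of Rps27 at 2.70 TPM and below the sum of Rps27 and Rps27rt at 955 TPM. Rpl22 had 58.3, 52.4 and 67.8 TPM in PD-0332991 libraries, 55.9, 57.3 and 62.1 TPM in aged untreated libraries and 61.8, 65.4 and 60.1 TPM in young libraries. Its paralogue Rpl22l1, outside the symbol rule, was of similar level and more variable, at 68.7 ± 6.96 TPM in PD-0332991 libraries, 84.4 ± 20.8 TPM in aged untreated libraries and 63.2 ± 26.7 TPM in young libraries (SD, n = 3 each). Rpl39 averaged 438 TPM and Rpl3 220 TPM, against at most 0.170 TPM in Rpl39l and 0.204 TPM in Rpl3l.

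Several members with known roles, and also Rpl15, are described for both main comparisons, which share the aged untreated libraries. Rpl5 and Rpl11, which carry 5S rRNA and can bind the p53 regulator Mdm2, had log2 fold changes of 0.00 ± 0.11 and −0.02 ± 0.12 with PD-0332991, and −0.04 ± 0.11 and 0.02 ± 0.12 with age. Rps6, the substrate of S6 kinases, had −0.03 ± 0.09 with the drug and 0.07 ± 0.09 with age. Rps27a, made as a fusion with ubiquitin, had −0.01 ± 0.11 with the drug and 0.00 ± 0.11 with age. Rps19, known from Diamond-Blackfan anaemia in humans, had 0.02 ± 0.11 with the drug and −0.01 ± 0.11 with age. Rps3, at the mRNA entry channel, had −0.02 ± 0.10 with the drug and 0.00 ± 0.10 with age, and Rpl13a, known for silencing mRNAs in human myeloid cells, had −0.02 ± 0.12 with the drug and 0.10 ± 0.12 with age. Rpl15 had −0.10 ± 0.12 with the drug and −0.02 ± 0.12 with age. None of these was called in limma.

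Other ribosomal protein genes, which the symbol rule leaves out, gave no call either. The 8 of them in the tables, among them Fau and Rps3a1, were all tested and none was called in any comparison. Fau, made as a fusion with a ubiquitin-like protein, averaged 611 ± 6.17 TPM in PD-0332991 libraries, 662 ± 51.8 TPM in aged untreated libraries and 569 ± 65.3 TPM in young libraries (SD, n = 3 each). The 28 other mRNAs with a pyrimidine-rich start had median log2 fold changes of 0.00 with the drug and −0.03 with age, and none was called.

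The factors that build ribosomes are a separate list from the proteins of the finished particle. Of 78 tested ribosome assembly factors, 76 had a log2 fold change below 0 with PD-0332991 at old age, as did 66.7% of all genes. Their median was −0.28, set against −0.01 for the ribosomal proteins and −0.09 for all genes. With age, 64 of the 78 were above 0, as were 47.9% of all genes, and the median was 0.24, set against 0.05 and −0.01. The aged untreated libraries are part of both comparisons. None of the factors was called in limma in any comparison, and 19 of 78 had an unadjusted p under 0.05 in each of these 2, where 18.2% of all genes had one with the drug and 15% with age. Without aged untreated replicate 3, limma called 13 of them lower with the drug and 16 higher with age, where 392 and 696 of all genes were called. With each of the other 8 libraries left out, it called 0 of them in both comparisons. Library weights gave 6 called higher with age, where 4.82% of all genes were called. A pseudocount of 1 TPM, a 5 TPM filter, median-of-ratios and quantile scaling each gave 1 called higher with age. In these settings 1.08% to 1.5% of all genes were called. Under each scaling tried, 64 to 76 of them were below 0 with the drug. With age 62 to 67 were above 0 and 11 to 16 below 0. Under these scalings 48.6% to 66.7% of all genes were below 0 with the drug and 48.6% to 55.7% with age.

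Fbl, the methyltransferase of box C/D snoRNPs, had 27.5, 27.1 and 28.5 TPM in PD-0332991 libraries, against 33.2, 41.0 and 33.8 TPM in aged untreated libraries and 29.7, 32.1 and 30.1 TPM in young libraries. The PD-0332991 libraries lay below all aged untreated libraries, with a log2 fold change of −0.37 ± 0.10 and an adjusted p of 0.0969 in limma. Bysl, a factor of small-subunit assembly, had 10.3, 10.1 and 8.16 TPM in aged untreated libraries against 6.01, 5.90 and 6.78 TPM in young libraries, a log2 fold change of 0.57 ± 0.12 with an adjusted p of 0.0502. Heatr1, needed for rRNA transcription and processing, had 4.68, 5.60 and 3.28 TPM in aged untreated libraries against 2.04, 2.03 and 2.96 TPM in young libraries, 0.81 ± 0.19, with an adjusted p of 0.0738.

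Few other genes of the pathway passed the test with the drug or with age. In PD-0332991 against young livers limma called 6.88% of all genes. Of 19 RNA polymerase I genes, 1 was called higher there and 1 lower. Of 27 mTORC1 and MYC regulators, 1 was higher and 2 lower, and 12 had an unadjusted p under 0.05, against 24.8% of all genes. Of 74 mitochondrial ribosomal proteins, 1 was lower. Among 19 tested genes of RNA polymerase I and rRNA transcription, Polr2l, a subunit shared by all 3 nuclear polymerases, rose with age to 52.9 ± 5.17 TPM in aged untreated libraries, against 37.7 ± 1.52 TPM in young libraries (SD, n = 3 each; adjusted p 0.0443 in limma). Of 27 tested mTORC1 and MYC regulators, Pdcd4, an inhibitor of the helicase eIF4A, fell with age to 22.1 ± 2.28 TPM in aged untreated libraries, against 32.4 ± 3.24 TPM in young libraries (SD, n = 3 each; adjusted p 0.0451). With each of the 9 libraries left out in turn, limma called each of these 2 genes with age only once, without aged untreated replicate 3. The adjusted p with age ran from 0.0299 to 0.170 for Polr2l and from 0.00785 to 0.170 for Pdcd4. No initiation, elongation or termination factor was called in limma in any comparison; of 27 initiation factors, 1 with the drug and 3 with age had an unadjusted p under 0.05, against 18.2% and 15% of all genes. Of 74 mitochondrial ribosomal proteins, none was called with the drug or with age, and their medians were −0.12 with the drug and 0.00 with age. Of 26 cell division genes 12 were tested, and 2 fell with the drug in limma, Aurka and Mcm6, which are named after their values were seen. The count was 0 with no filter, a 5 TPM filter, the 6 libraries of the comparison, the replicate block, or without PD-0332991 replicate 2 or 3, and it was 5 without aged untreated replicate 1. It was 1 with each of the other 6 libraries left out. With the drug all 12 were below 0, as were 66.7% of all genes. Aurka, Mcm2, Mcm6 and Rrm2 were under 1 TPM in every PD-0332991 library, so they were tested through their untreated levels. That selection favours a fall, and no conclusion is drawn from the direction. All 26 genes summed to 59.5 to 67.8 TPM in PD-0332991 libraries and 67.4 to 108 TPM in aged untreated libraries, which overlapped. With age none of the 12 was called in limma, and 11 were above 0, as were 47.9% of all genes. Without aged untreated replicate 3, 1 was called with age.

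**Figure D5:**
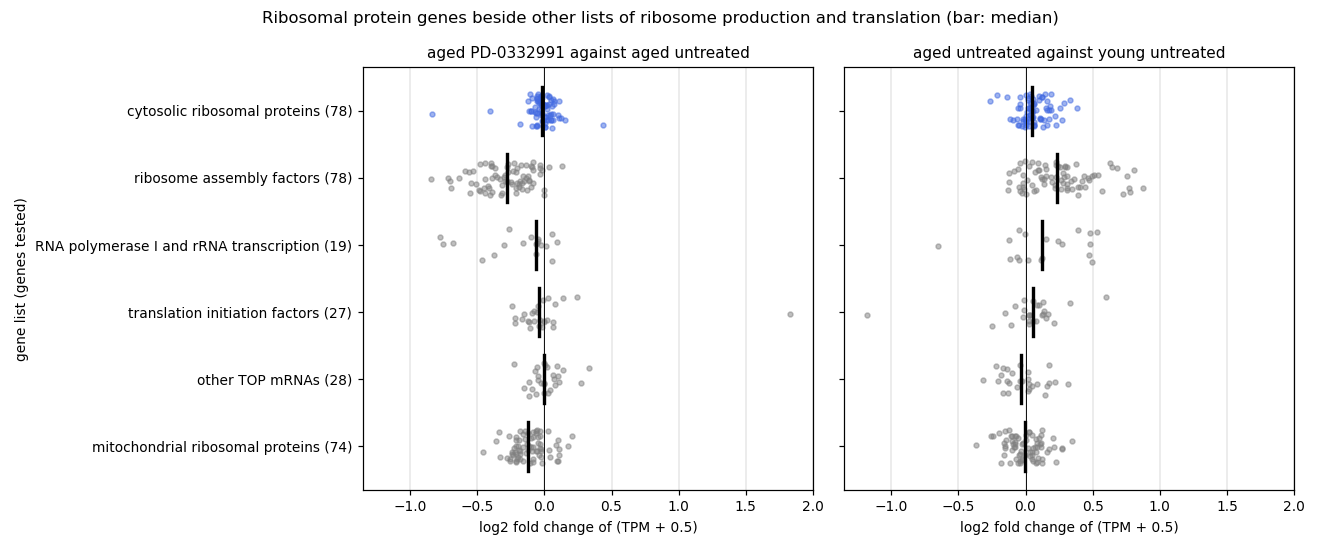
Log2 fold changes of the 78 members and of the tested genes of 5 other lists, for aged PD-0332991 against aged untreated livers (left) and aged against young untreated livers (right). Each point is a gene and each bar a list's median. Members cluster near 0 in both panels, while the bar of the assembly factors lies at −0.28 on the left and 0.24 on the right.

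Some markers of other cells were called between groups. Calls among the other lists were not stable over the settings, as given below. Of 14 Kupffer cell and macrophage markers, 13 were tested and 0 were called with the drug or with age. Of the 13, 5 were called lower in PD-0332991 than in young livers. In that comparison 6.88% of all genes were called. The lower calls were 436 genes as reported and 224 with median-of-ratios scaling. The 14 Kupffer cell and macrophage markers summed to 167 to 171 TPM in PD-0332991 libraries, 167 to 237 TPM in aged untreated libraries and 172 to 261 TPM in young libraries. Of 12 neutrophil markers, 11 were listed and 3 tested. All 3 were called higher in PD-0332991 than in young livers, against 6.88% of all genes called. Of these, Retnlg was under 1 TPM in every young library, so it was tested through its levels in aged livers. That selection favours a rise, and no conclusion is drawn from its direction. The sum of the 11 markers was 25 to 35.3 TPM in PD-0332991 libraries, 10.1 to 26.7 TPM in aged untreated libraries and 3.34 to 4.18 TPM in young libraries. With age, 1 of 12 tested endothelial markers and 1 of 12 tested stellate cell markers were called lower in aged livers. Of 8 cholangiocyte markers 3 were tested, and 1, Sox9, was called higher. Among all genes 1.1% were called with age. Sox9 was under 1 TPM in every young library, so it was tested through its levels in aged livers. No conclusion is drawn from its direction. No marker of the Kupffer cell or neutrophil list was at 0 in all libraries. The part of cell makeup in the levels of ribosomal proteins was not tested.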

How the data were processed

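RNA of 9 liver libraries was measured by paired-end sequencing of Illumina TruSeq RNA libraries, per the labels' protocols. Abundances come from kallisto and build mm10, per the submitters' processing notes; the tool's version, its annotation and the joining of transcripts to genes are not stated there. Each table that the authors deposited holds TPM for 23444 symbols per library. TPM keeps no depth, so no counting interval was computed. A total of 4 rows with date-like symbols that occur more than once were dropped.

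All 9 libraries, grouped by their titles, were fitted in 1 model with group as the only term in limma 3.58.1 (R 4.3.3), on log2 (TPM + 0.5), with an intensity trend and robust variances. Genes with 1 TPM in at least 3 libraries were tested, two-sided, with Benjamini-Hochberg adjustment over all of them. The steps were tested on simulated data. Coding sequences were compared by their 31-base words with GENCODE M21 transcripts, and promoters were taken from RefSeq.

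The members and lists were chosen with earlier results of these data known. Members were named by a rule: the 5 highest and 5 lowest log2 fold changes of a comparison, the 3 highest and 3 lowest levels, any call, paralogues and known roles. Alternatives were other pseudocounts, filters, scalings, variance settings, library weights, 6 libraries only, a replicate block, each library left out and near-identical rows summed; the last was chosen after seeing the data.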

Additional observations from a re-analysis of the deposited data

How the results depend on the processing

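Over 21 alternatives, 0 members were called in each comparison except in 2 cases: 1 member (Rplp2) with age under library weights, with an adjusted p of 0.0467, and 2 (Rplp2 and Rps16) in PD-0332991 against young livers under median-of-ratios scaling. That scaling also moved the members' median to 0.0919 for PD-0332991 against aged livers and to 0.170 against young livers, and the members without overlap to 26 and 31, where 20.3% and 31.5% of all genes did not overlap. It moved the median of all genes from −0.10 to 0.02 in PD-0332991 against young livers, and the members' excess over that median was 0.14 before and 0.15 after; with quantile normalization the excess was 0.00. The cause was not tested. Leaving out each library in turn gave members' medians of −0.06 to 0.03 with the drug, 0.02 to 0.10 with age, and −0.01 to 0.09 for PD-0332991 against young livers, with 0 members called each time. Calls among all genes ranged from 7 to 392 with the drug (147 as reported), 15 to 696 with age (112) and 151 to 1263 against young livers (699). The higher and lower calls were 62 and 85 with the drug, 118 and 53 with median-of-ratios scaling and 88 and 56 with quantile normalization. Against young livers they were 263 and 436, then 387 and 224, and 308 and 310.

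Calls among the other lists were 2 with the drug, 5 with age and 18 against young livers, and were not stable. With the drug they were 0 with no filter, a 5 TPM filter, 6 libraries or the replicate block, 1 with a pseudocount of 1 TPM, median-of-ratios or quantile scaling, and 4 with library weights. With age they were 0 with no filter, 19 with library weights, 2 without trend and robust variances, 1 with 6 libraries and 2 with the replicate block. Against young livers they were 9 with no filter or a 5 TPM filter, 33 with library weights and 38 with 6 libraries. Leaving out 1 library gave 0 to 20, 0 to 41 and 3 to 33, the top of each range without aged untreated replicate 3. The labels do not say whether replicate numbers pair the libraries. Same-numbered libraries of different groups correlated at −0.22 to 0.17 and other ones at −0.22 to 0.23, and 4 of 9 correlated best with their own number. With 3 libraries per group, these values cannot exclude a pairing. With the replicate block 0 members were called in each comparison. Of 2076 recomputed values of the 33 named members, 161 changed sign. In 6 of these the reported log2 fold change exceeded 0.2 in size. No member was called as reported, so these changes could not undo a call. TPM gives no depth, so what depth limits could not be assessed.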
